A study of Homo sapiens with 12 samples.

Results

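None of the 10 genes described here passed the test for a change after 6 h of dihydrotestosterone, and the 95% interval of each lay within 2-fold either way. They encode the cytosolic chaperone machine that holds steroid receptors ready for ligand: HSP90AA1, HSP90AB1, HSPA8, DNAJA1, HSPH1, STIP1, PTGES3, FKBP4, AHSA1 and CDC37. The set was taken by symbol from the deposited table of counts, as HSP90, HSP70 and the co-chaperones known to work with steroid receptors, and makes up 10 of the 60670 genes in that table. All 10 had enough counts to be tested, among 16355 genes tested in all.

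RNA came from MDA-MB-453, an established human breast cancer cell line. Cells had been in culture for 72 h, in DMEM rich in glucose and supplemented with fetal bovine serum. The vehicle group received 0.001% ethanol for 6 h and the DHT group received 10 nM dihydrotestosterone (DHT), a potent natural androgen, for 6 h. Each group had 6 libraries, which the labels call independent and tie to consecutive passages of the line, so the replicates sample 1 cell line and not several patients or lines. Library preparation started from 1 µg of RNA, and single reads of 40 bp were taken. Whether the RNA was poly-A selected is unsettled, since the labels name both a poly-A assay and a kit for total RNA.

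In the textbook cycle, a newly made receptor is first bound by HSP70 with the help of a J-protein, a class that stimulates HSP70 to hydrolyse ATP. An adaptor then hands the receptor to an HSP90 dimer, and late co-chaperones such as p23 and the large immunophilins stabilise the complex in which the receptor can bind hormone. Ligand binding changes that complex, and the receptor moves to the nucleus and to DNA. Many of these chaperones also belong to the heat shock response, in which heat shock factor 1 binds repeats of the GAA unit in their promoters.

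The promoter sequences are shown because they separate the members that carry this element from those that do not. RefSeq promoter windows on GRCh38.p14, running from 250 bases before to 50 bases after a transcript start, were found for 9 of the 10 members. FKBP4 had no entry. The search on both strands was for GAANNTTC or TTCNNGAA, each followed after a gap of 2 bases by a 3rd unit in turn (GAA or TTC). The 9 members have 14 windows, and 4 members had a window with this 3-unit element. Of all 35116 single promoter windows 0.490% held it. A gene can have several windows, so a count of members and a share of windows are unlike measures. The stretches are printed 5′ to 3′ on the gene's strand, with the element in capitals.
HSP90AA1 (chr14:102087105-102087147, minus strand): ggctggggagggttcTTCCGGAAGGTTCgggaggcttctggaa
HSP90AB1 (chr6:44247763-44247805, plus strand): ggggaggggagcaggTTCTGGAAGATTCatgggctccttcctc
HSP90AB1 (chr6:44247816-44247858, plus strand): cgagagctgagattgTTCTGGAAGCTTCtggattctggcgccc
HSPA8 (chr11:123062339-123062381, minus strand): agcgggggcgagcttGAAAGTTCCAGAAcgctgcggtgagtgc
HSPA8 (chr11:123062164-123062206, minus strand): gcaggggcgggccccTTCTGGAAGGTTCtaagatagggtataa
DNAJA1 (chr9:33025268-33025296, plus strand): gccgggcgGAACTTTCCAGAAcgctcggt

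Positions are counted from the transcript start of the window that held the match. The element of HSP90AA1 begins 88 bases before that start, those of HSP90AB1 at 165 and 112 bases before it and those of HSPA8 at 230 and 55 bases before it. The DNAJA1 element begins at base 4 after its start. The shorter form with 2 units was also found in a window of STIP1, so 5 members held it, against 13.5% of all windows. The windows of HSPH1, PTGES3, AHSA1 and CDC37 held neither form. The paired element known for steroid receptors of this class, GNACA and TGTNC separated by 3 bases, was in 0 member windows and in 0.390% of all windows. The single site AGAACA stood in windows of HSP90AB1 and AHSA1 and in 14.8% of all windows, and in HSP90AB1 it overlaps the heat shock element that begins 112 bases before the start. These are matches of letters within short windows, and binding was not measured.

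Before the results, the libraries themselves need a description, because the same few move several members. The shallowest library, vehicle replicate 6, had 4346465 counts in all and the deepest, DHT replicate 2, had 25678781. At those depths the members held between 954 counts (CDC37 in its shallowest library) and 74590 counts (HSPA8 in its deepest). Both replicate 2 libraries stood apart from the other 10 on the first principal component, which carried 51.1% of the variance. The second, with 15.7%, split the groups, from -49.96 to -2.45 in vehicle and from 12.3 to 23.4 in DHT. Vehicle replicate 5 stood apart at its low end. Vehicle replicate 5 also had 8.07% of its counts on mitochondrial genes, against 3.03% to 5.66% in the other 11 libraries. The labels give no batch, date or lane, so what these libraries share was not tested. Deviations from the group mean correlated between same-numbered libraries at -0.238 (replicate 5) to 0.875 (replicate 2). These correlations cannot show whether such libraries come from the same passage.

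Cell lineage was looked at with marker lists, which cannot identify the line itself. Luminal epithelial markers (KRT8, KRT18, KRT19, EPCAM and CDH1) were all expressed, with a summed level of 1850 to 5072 CPM in vehicle and 1721 to 4658 CPM in DHT. CPM is the usual scaling of counts to library size, here to the total after TMM scaling, which adjusts totals for differences in composition. Of 8 fibroblast markers, 3 were tested and none passed, while all 3 were lower in DHT at an unadjusted p under 0.05, where 5.41% of all genes were: COL1A1 (log2 fold change -0.36), COL1A2 (-1.10) and COL3A1 (-1.17). Their list's summed level was 77.0 to 111 CPM in vehicle and 59.9 to 76.2 CPM in DHT, most of it COL1A1, and the part of this in the members' values was not tested. Of the luminal markers, KRT18 (-0.54), KRT8 (-0.53), EPCAM (-0.13) and CDH1 (-0.10) had negative values and KRT19 (0.09) a positive one. None of them passed. In the authors' deposited table COL1A2 (-1.16, adjusted p = 0.0258) and KRT8 (-0.43, adjusted p = 0.0239) pass. COL1A1, COL3A1, KRT18, KRT19, EPCAM and CDH1 do not pass there. Leukocyte markers summed to at most 0.496 CPM in any library, with 3 of 7 genes at 0 counts and PTPRC at 2 counts over all libraries. Endothelial markers summed to at most 1.55 CPM.

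Among the 10 members, 0 rose and 0 fell at an adjusted p under 0.05 in edgeR's quasi-likelihood test, which adjusts by Benjamini-Hochberg over all 16355 genes. Over all genes 2.84% passed, of which 1.96% rose and 0.88% fell. At an unadjusted p under 0.05, 1 member was higher (HSPH1), against 6.59% of all genes, and 0 were lower, against 5.41% of all genes. DESeq2, which raised 3.12% of all genes, and limma-voom also called 0 members. No member was lower in every DHT library, as 0.991% of all genes were. The log2 fold change of DHT over vehicle was positive for 5 members and negative for 5, with a median of 0.01 beside -0.05 over all genes tested. The 95% interval of the fold change lay within 2-fold either way for all 10 members and within 1.5-fold for 8. The exceptions to the narrower bound were HSP90AA1 and HSPH1. Together the 10 genes took 0.957% ± 0.154 (SD, n = 6) of the counts in vehicle and 0.970% ± 0.0550 (SD, n = 6) in DHT. In RNA from bulk cultures, a lower level in every cell and fewer cells with the transcript cannot be told apart.

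**Figure D1:**
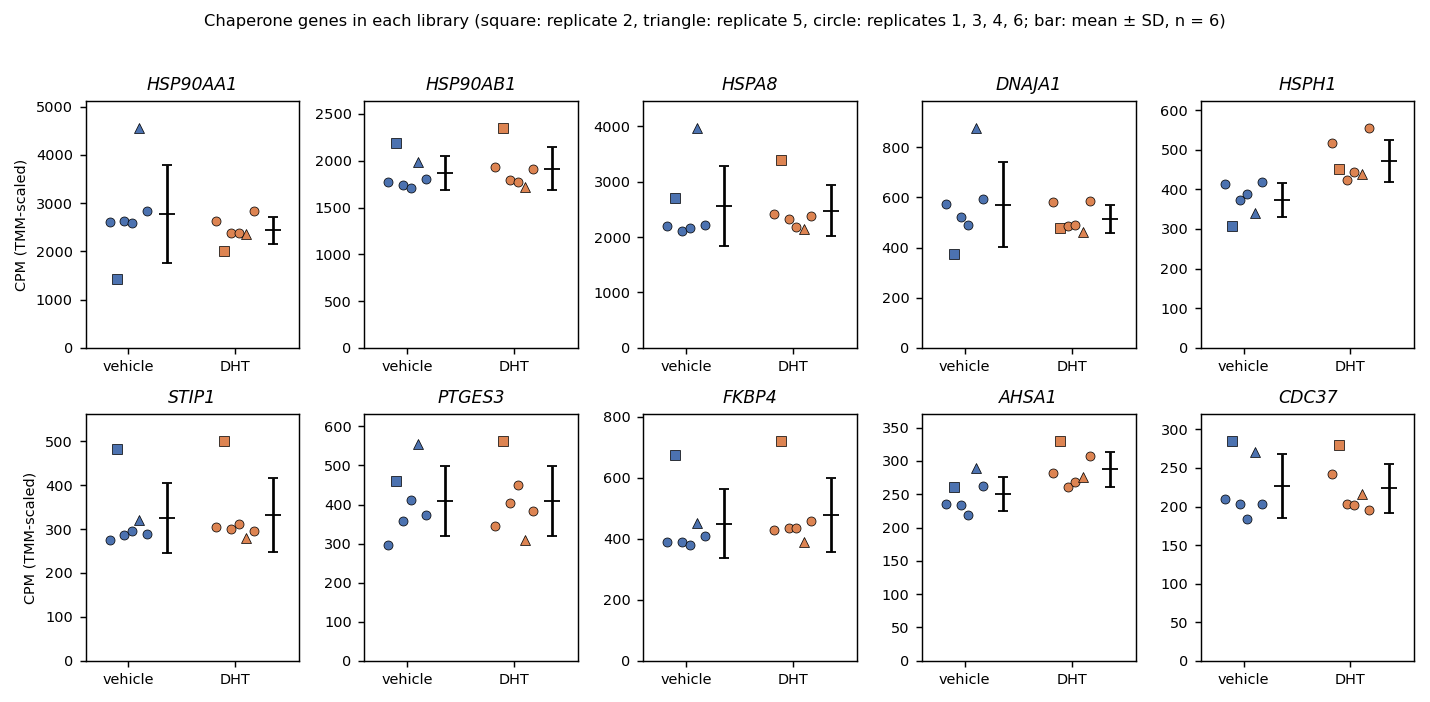
Level of each of the 10 chaperone genes in the 12 libraries, in CPM on a linear axis from 0, with vehicle on the left and DHT on the right of each panel. Points are libraries, with squares for replicate 2 and triangles for replicate 5, and the bar is the mean ± SD of 6 libraries. HSPH1 is the only panel in which all 6 DHT points lie above all 6 vehicle points.

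HSP90 itself was read from 2 genes. HSP90AA1 (ENSG00000080824, chromosome 14, 102080742 to 102139699, GRCh38) encodes the stress-inducible cytosolic isoform. Its vehicle libraries ran from 1420 CPM (replicate 2) through a median of 2626 CPM to 4565 CPM (replicate 5), and its DHT libraries from 2016 CPM (replicate 2) through 2382 CPM to 2840 CPM (replicate 6). The DHT values therefore all lay inside the vehicle range, and both ends of that range were set by the libraries that stood apart. The means were 2777 ± 1012 CPM in vehicle and 2436 ± 279.9 CPM in DHT (SD, n = 6 each), a log2 fold change of -0.19 (SE 0.22, 95% interval -0.66 to 0.29, edgeR adjusted p = 0.877). Without vehicle replicate 5 the value was 0.01, on the other side of 0.

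HSP90AB1 (ENSG00000096384, chromosome 6, 44246166 to 44253888), the constitutive isoform, was the steadier of the pair. Vehicle libraries spanned 1714, 1794 and 2186 CPM (lowest, median and highest) and DHT libraries 1715, 1854 and 2353 CPM. The highest value of each group was replicate 2, and the remaining 10 libraries overlapped closely. Its log2 fold change was 0.03 (SE 0.13, 95% interval -0.25 to 0.32, edgeR adjusted p = 0.968).

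The balance between the isoforms was compared within each library, where scaling between libraries cancels. The ratio of HSP90AA1 to HSP90AB1 counts was 0.650 (replicate 2), 1.51 and 2.29 (replicate 5) in vehicle, as lowest, median and highest, and 0.857 (replicate 2), 1.35 and 1.48 in DHT. The mean log2 ratio was lower by a difference of -0.15 in DHT, with an exact two-sided permutation p of 0.654 (0.654 adjusted over the 2 ratios tested), and 0 of 6 DHT libraries exceeded the vehicle median. This result moved with single libraries. Without vehicle replicate 2 the difference was -0.37 (exact permutation p = 0.00649), and without both replicate 2 libraries it was -0.26 (exact permutation p = 0.0159). Leaving out vehicle replicate 5 as well as both replicate 2 libraries gave -0.14 (exact permutation p = 0.0238). Leaving out vehicle replicate 5 alone gave -0.0079 (exact permutation p = 0.976), and leaving out DHT replicate 2 alone gave -0.03 (exact permutation p = 0.929). Any other single library left out gave an exact permutation p of at least 0.556. These p-values are not adjusted for the number of ways libraries were left out.

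The HSP70 arm was read from HSPA8, DNAJA1 and HSPH1. HSPA8 (ENSG00000109971, chromosome 11, 123057489 to 123063230) encodes the constitutive cytosolic HSP70, HSC70. Its vehicle libraries ran from 2111 CPM through a median of 2211 CPM to 3973 CPM (replicate 5), and its DHT libraries from 2148 CPM through 2347 CPM to 3398 CPM (replicate 2). Apart from 1 high library in each group and vehicle replicate 2 at 2714 CPM, the groups overlapped. The log2 fold change was -0.05 (SE 0.19, 95% interval -0.46 to 0.36, edgeR adjusted p = 0.968), and without vehicle replicate 5 it was 0.12.

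DNAJA1 (ENSG00000086061, chromosome 9, 33025273 to 33039907) encodes the farnesylated J-protein that starts the receptor cycle. Vehicle libraries spanned 373 CPM (replicate 2), a median of 549 CPM and 878 CPM (replicate 5), and DHT libraries 462, 489 and 585 CPM. As with HSP90AA1, every DHT library lay inside the vehicle range. The log2 fold change was -0.15 (SE 0.18, 95% interval -0.53 to 0.22, edgeR adjusted p = 0.873), and without vehicle replicate 5 it was 0.01.

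HSPH1 (ENSG00000120694, chromosome 13, 31134973 to 31162388) encodes HSP105, an HSP110 protein that exchanges nucleotide on HSP70. Its vehicle libraries held 307 CPM (replicate 2), 340 CPM (replicate 5), 372 CPM (replicate 3), 389 CPM (replicate 4), 414 CPM (replicate 1) and 418 CPM (replicate 6). Its DHT libraries held 424 CPM (replicate 3), 440 CPM (replicate 5), 444 CPM (replicate 4), 450 CPM (replicate 2), 516 CPM (replicate 1) and 556 CPM (replicate 6). All 6 DHT libraries lay above the highest vehicle library, by a small margin at the nearest pair, and 2.28% of all genes were higher in every DHT library in this way. The mean was 373 ± 43.4 CPM in vehicle and 472 ± 52.0 CPM in DHT (SD, n = 6 each), a fold of 1.26 and a log2 fold change of 0.34 (SE 0.12, 95% interval 0.08 to 0.59). The unadjusted p was 0.0134 and the edgeR adjusted p was 0.209, so HSPH1 did not pass. The adjusted p by DESeq2 was 0.0502, and the value stayed between 0.26 and 0.38 over 28 alternative settings, in 2 of which it passed. Those 2 took the replicate number as a block, where 4.67% of all genes rose, or that block with a GC and length offset, where 8.02% rose. In the authors' deposited table HSPH1 has a log2 fold change of 0.35 with an adjusted p of 0.322.

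HSPH1 and HSPA8 work as a pair, and their ratio within a library was tested in the same way as that of the HSP90 isoforms. The ratio of HSPH1 to HSPA8 counts was 0.0856 (replicate 5), 0.178 and 0.188 in vehicle, as lowest, median and highest, and 0.133 (replicate 2), 0.204 and 0.234 in DHT. The mean log2 ratio was higher in DHT by 0.37, with 5 of 6 DHT libraries above the vehicle median and an exact two-sided permutation p of 0.152 (0.303 adjusted over the 2 ratios). DHT replicate 2 was the library below that median. Without it the difference was 0.47 (exact permutation p = 0.0325), and without both replicate 2 libraries it was 0.40 (exact permutation p = 0.0238). Without vehicle replicate 2 it was 0.29 (exact permutation p = 0.299), and without vehicle replicate 5 it was 0.21 (exact permutation p = 0.314). With both replicate 2 libraries and vehicle replicate 5 left out it was 0.18 (exact permutation p = 0.0317). Leaving out any other single library gave an exact permutation p of at least 0.11. None of these p-values is adjusted for the number of ways libraries were left out. With the replicate number as a block the difference was 0.37 (exact sign-flip p = 0.0312, the smallest that 6 pairs can give). The ratio was higher in DHT in every same-numbered pair. The numbers were not taken as pairs, since the deviations of the replicate 5 libraries correlated at -0.238, so no conclusion is drawn from the block value.

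The adaptor STIP1 (ENSG00000168439, chromosome 11, 64185272 to 64204543) encodes HOP, which binds HSP70 and HSP90 at once and passes the receptor between them. Its vehicle libraries spanned 276, 292 and 483 CPM (lowest, median and highest) and its DHT libraries 279, 302 and 501 CPM. Replicate 2 was the high library in each group, 1.67-fold above the median of the other vehicle libraries, and the other 10 libraries lay between 276 and 321 CPM. The log2 fold change was 0.03 (SE 0.18, 95% interval -0.35 to 0.42, edgeR adjusted p = 0.983).

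PTGES3 and FKBP4 act in the late, hormone-binding complex. PTGES3 (ENSG00000110958, chromosome 12, 56663341 to 56688408) encodes p23, which binds HSP90 in its closed, ATP-bound form. It had 297, 393 and 555 CPM in vehicle and 310, 394 and 564 CPM in DHT, so the ranges and medians nearly coincided. Its log2 fold change was 0.00 (SE 0.18, 95% interval -0.38 to 0.37, edgeR adjusted p = 0.999).

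FKBP4 (ENSG00000004478, chromosome 12, 2794970 to 2805423) encodes FKBP52, the immunophilin known to support steroid receptor activity. It had 381, 399.95 and 676 CPM in vehicle and 391, 435 and 722 CPM in DHT, with replicate 2 highest in each group. The other 5 vehicle and 5 DHT libraries overlapped between 381 and 457 CPM. The log2 fold change was 0.09 (SE 0.18, 95% interval -0.31 to 0.49, edgeR adjusted p = 0.940).

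AHSA1 (ENSG00000100591, chromosome 14, 77457870 to 77469472) encodes AHA1, the activator of the HSP90 ATPase. Its vehicle libraries spanned 219, 248 and 289 CPM (replicate 5) and its DHT libraries 261, 279 and 330 CPM (replicate 2). All 6 DHT libraries lay above the vehicle median, and 2 lay above the highest vehicle library, so the groups overlapped. The means were 249.8 ± 25.5 CPM and 288 ± 26.3 CPM (SD, n = 6 each), a log2 fold change of 0.20 (SE 0.11, 95% interval -0.03 to 0.43). The edgeR adjusted p was 0.520, with an unadjusted p of 0.0788. Over 28 alternative settings the value ran from 0.16 to 0.26, and it passed in 1 of them, the GC and length offset with the replicate number as a block. In the authors' deposited table AHSA1 has a log2 fold change of 0.30 with an adjusted p of 0.881.

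CDC37 (ENSG00000105401, chromosome 19, 10391133 to 10420121) encodes the co-chaperone that brings protein kinases to HSP90. It had 184, 207 and 285 CPM in vehicle and 196, 209.7 and 279.97 CPM in DHT, with replicate 2 highest in each group. The log2 fold change was -0.02 (SE 0.14, 95% interval -0.32 to 0.28, edgeR adjusted p = 0.988), with its sign changing in 11 of 28 alternative settings.

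**Figure D2:**
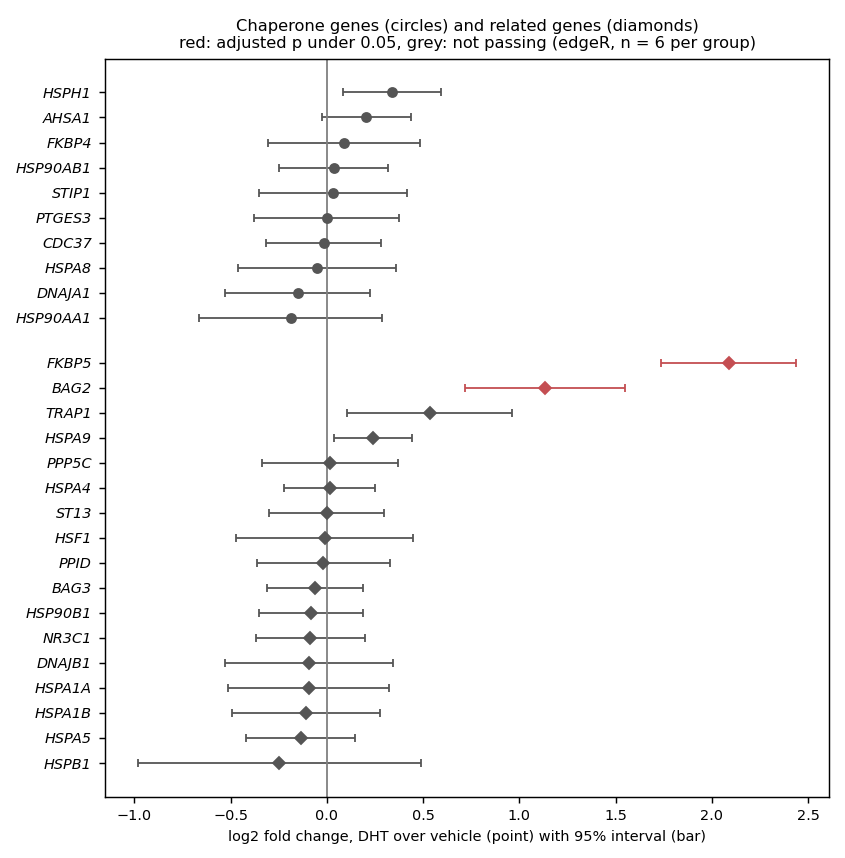
Log2 fold change of DHT over vehicle from edgeR (points) with its 95% interval (bars), for the 10 chaperone genes as circles and for related genes as diamonds, n = 6 libraries per group. Red marks an adjusted p under 0.05. The 10 circles are all grey and lie between -0.19 (HSP90AA1) and 0.34 (HSPH1), while FKBP5 lies at 2.09 and BAG2 at 1.13.

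Levels between genes were compared per kilobase of annotated exon, in vehicle. HSP90AB1 had 627 ± 61.6 CPM per kb, HSP90AA1 545 ± 199 and HSPA8 529 ± 149 (SD, n = 6 each). With this length these first 3 do not differ beyond their spread. Ranked by the mean over all 12 libraries, DHT included, they stood at 33, 50 and 48 among the genes tested. DNAJA1 followed with 214 CPM per kb and PTGES3 with 120.5. FKBP4 (87.1 CPM per kb), AHSA1 (84.8), CDC37 (74.3) and STIP1 (70.7) lay within each other's spread. HSPH1 was lowest at 44.5, with rank 1177 over both groups. With the authors' mean transcript length in place of exon length the order began with HSP90AA1 (2244 CPM per kb), HSPA8 (2122) and HSP90AB1 (715). FKBP4 then came ahead of DNAJA1, and PTGES3 moved from place 5 to place 8. Levels between genes therefore depend on the length used.

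Among the libraries that stood apart, vehicle replicate 5 was at least 1.5-fold above the median of the other vehicle libraries for 3 members, HSPA8 (1.81-fold), HSP90AA1 (1.75-fold) and DNAJA1 (1.68-fold), against 18.3% of all genes. The heat-inducible genes HSPA1A (1.05-fold), HSPA1B (1.03-fold) and DNAJB1 (0.98-fold) stood near that median in the same library, and HSPB1 stood at 1.67-fold. HSPH1 in that library was at 0.87-fold.

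Replicate 2 gave another pattern. It was the highest library of both groups for HSP90AB1, STIP1, FKBP4 and CDC37, 4 of 10 members against 26.6% of all genes, and the lowest of both groups for HSP90AA1, 1 of 10 against 25.5% of all genes. Neither count is far from what the background share gives for 10 genes. FKBP4 was 1.73-fold above the median of the other libraries in vehicle replicate 2 and 1.66-fold above in DHT replicate 2, while HSP90AA1 was at 0.54-fold and 0.84-fold of it.

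**Figure D3:**
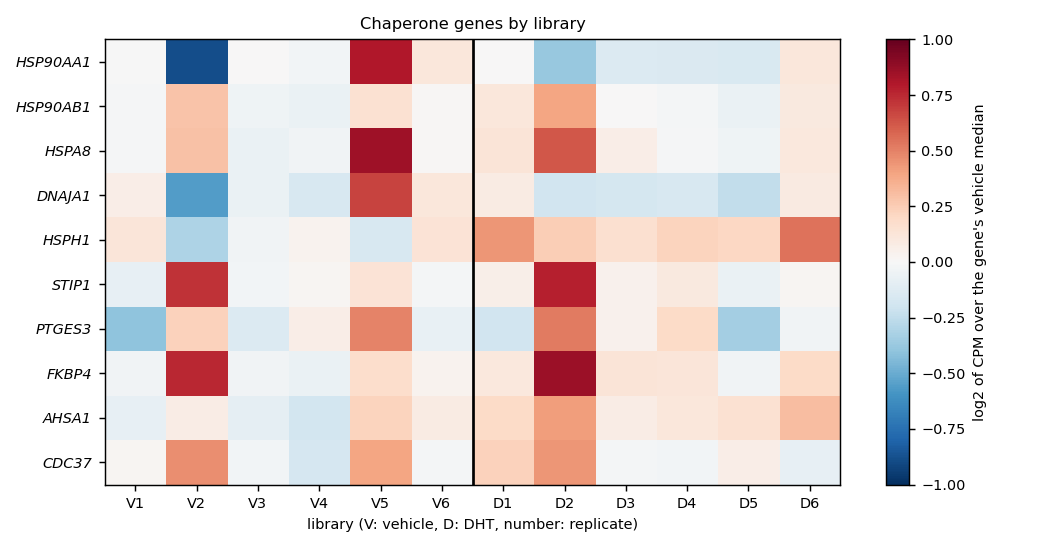
Level of each chaperone gene (rows) in each library (columns, V for vehicle, D for DHT, with the replicate number), as log2 of its CPM over the gene's vehicle median, with red above and blue below. The columns V2, V5 and D2 hold most of the strong colours, and HSPH1 and AHSA1 are the rows in which all 6 DHT columns are red.

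Many members have processed pseudogenes that can take their reads, more so with 40 bp reads. Counts on matched pseudogenes amounted to 14.7% to 21.0% of those on HSP90AA1 over the libraries, 17.8% to 20.9% for HSP90AB1 and 16.1% to 17.9% for HSPA8. The largest contributors were HSP90AA2P, HSP90AB3P and HSPA8P1. The share was 6.94% to 11.1% for PTGES3, at most 5.45% for STIP1, 5.28% for FKBP4, 3.45% for DNAJA1 and 1.35% for CDC37. Pseudogenes were matched by symbol alone, so any named in another way were not counted. HSPH1 and AHSA1 had 0 pseudogenes matched in this way. Adding these counts to their parent genes left 0 members called, and HSP90AA1 at -0.17. Exons of HSP90AA1 share 197 bases with WDR20 and those of AHSA1 share 83 bases with VIPAS39, each on the opposite strand, and without a stated strand setting those reads cannot be told apart.

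Other genes of the pathway were read from lists. Of 30 other HSP90 co-chaperones, all tested, 1 rose and 0 fell, with a median log2 fold change of 0.00. The one that rose was FKBP5, which encodes FKBP51, the immunophilin that shares its HSP90 site with FKBP52 and is a known androgen-induced gene. It went from 82.4 ± 15.2 CPM in vehicle to 350.1 ± 63.8 CPM in DHT (SD, n = 6 each), with the groups apart in 6 of 6 libraries. Its log2 fold change was 2.09 (SE 0.16, edgeR adjusted p = 6.79e-06), and it passed under all 26 alternatives run. PPID (-0.02), encoding the immunophilin CYP40, and PPP5C (0.02), encoding a receptor-bound phosphatase, did not pass. At an unadjusted p under 0.05, 4 of these co-chaperones were higher, against 6.59% of all genes, and 0 were lower, against 5.41%.

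Of 30 other genes of the HSP70 and HSP40 system, 29 were tested, 1 rose and 0 fell, with a median of -0.03. BAG2, an HSP70 nucleotide exchange factor, rose from 3.79 ± 0.96 CPM to 8.28 ± 1.31 CPM (SD, n = 6 each), a log2 fold change of 1.13 (SE 0.19, edgeR adjusted p = 0.00482), with every DHT library above every vehicle library. It passed under all 26 alternatives. The stress-inducible HSP70 genes HSPA1A (-0.10) and HSPA1B (-0.11), whose near-identical sequences share reads, and DNAJB1 (-0.09), their J-protein partner, did not pass. The same held for BAG3 (-0.06), ST13 (0.00), encoding the HSP70-interacting protein HIP, and HSPA4 (0.01). BAG1, picked after its values were seen, had 94.2 ± 13.3 CPM in vehicle and 121 ± 13.7 CPM in DHT, a log2 fold change of 0.36 (edgeR adjusted p = 0.156). DNAJB5, picked likewise, was at -0.40 (edgeR adjusted p = 0.344). At an unadjusted p under 0.05, 2 genes of this list were higher, against 6.59% of all genes, and 1 was lower, against 5.41%.

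A list of 15 genes held heat shock factors, small heat shock proteins and some others (CLU, SERPINH1, HSBP1 and IER5). Of these, 9 were tested and 0 passed, with 0 also at an unadjusted p under 0.05 and a median of -0.13. HSF1, the transcription factor of the heat shock response, had 117 ± 45.1 CPM in vehicle and 116 ± 27.7 CPM in DHT, a log2 fold change of -0.01 (edgeR adjusted p = 0.995). HSPB1 was at -0.25 with a wide interval of -0.98 to 0.49.

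Of 12 chaperones of the endoplasmic reticulum and mitochondria, all tested, 0 passed, and 6 were higher at an unadjusted p under 0.05, where 6.59% of all genes were. Their median log2 fold change was 0.22. The mitochondrial HSP70 gene HSPA9 had 441 ± 10.4 CPM in vehicle and 521 ± 26.2 CPM in DHT (SD, n = 6 each), with the groups apart, a log2 fold change of 0.24 and an edgeR adjusted p of 0.281. By DESeq2 its adjusted p was 4.46e-04, and it passed in 3 of 26 alternatives in all. TRAP1, the mitochondrial HSP90, had 94.8 ± 34.2 CPM in vehicle and 137 ± 28.7 CPM in DHT, a log2 fold change of 0.53 (edgeR adjusted p = 0.248). Without vehicle replicate 2, at 163 CPM the highest of its group, TRAP1 was at 0.76 (edgeR adjusted p = 0.00586), and it passed in 7 of 26 alternatives in all. In the authors' deposited table TRAP1 does pass, with a log2 fold change of 0.64 and an adjusted p of 0.0212. HSPA9 has 0.29 there with an adjusted p of 0.878. The other 4, picked after their values were seen, were GRPEL1 (0.49), DNAJA3 (0.44), HSPD1 (0.30) and GRPEL2 (0.26), with adjusted p-values from 0.0695 to 0.311. HSPE1, the partner of HSPD1 and picked likewise, was at 0.19 (edgeR adjusted p = 0.899), with overlapping groups. HSP90B1 (-0.08) and HSPA5 (-0.14), the HSP90 and HSP70 of the endoplasmic reticulum, had negative values and did not pass. Of 15 genes of the TRiC chaperonin and prefoldin, 0 passed, 1 was higher at an unadjusted p under 0.05 (PFDN2, 0.36, picked after its values were seen), and the median was 0.07.

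Other receptors that the members hold were read in the same way. NR3C1, the glucocorticoid receptor, ran from 70.9 to 118 CPM in vehicle and from 70.5 to 103 CPM in DHT (log2 fold change -0.09, edgeR adjusted p = 0.912). NR3C2, the mineralocorticoid receptor, had 5.67 ± 1.29 CPM in vehicle and 5.87 ± 0.92 CPM in DHT (SD, n = 6 each). The progesterone receptor gene PGR summed to 26 counts in vehicle and 13 in DHT, and the estrogen receptor gene ESR1 to 29 and 11, too few to be tested.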

How the data were processed

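RNA-seq was compared between 6 vehicle and 6 DHT libraries. The submitters' processing notes name STAR, featureCounts and GRCh38 without versions. The table the authors deposited holds estimated counts: per library, 39.6% to 46.7% of values above 0 missed a whole number by over 0.005, and 101 of 120 member values. They were rounded before testing. A record of 1 gene broken over 3 lines was left out. No source used here states how strand or multi-mapping was handled. A further table of the authors holds, per the file headers, p-values, log2 fold changes, average log2 CPM and GC percent of 14559 genes, with no model stated.

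Genes passing filterByExpr were scaled by TMM and tested with edgeR 4.0.16 (R 4.3.3), with group as the only term and a threshold of 0.05 after Benjamini-Hochberg adjustment over 16355 genes. Standard errors (SE) come from dividing a log2 fold change by √F. The members' ratios were tested by exact two-sided permutation of all labelings. DESeq2 1.42.0, limma 3.58.1 (voom), other scalings and filters, a GC and length offset covering 89.0% of genes, a replicate block, pseudogene counts and left-out libraries were the alternatives. Leaving out both replicate 5 libraries, leaving out both replicate 2 libraries with vehicle replicate 5, and including HSP90 pseudogenes were chosen after seeing the data. The fits were tested on simulated data.

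Totals ran from 4346465 to 25678781 counts. In CPM after TMM scaling, 1 count was worth 0.214 in the shallowest library (vehicle replicate 6) and 0.0456 in the deepest (DHT replicate 2). Named genes were all members, up to 3 raised and 3 lowered genes per list by adjusted p, and 19 fixed genes. The members and lists were chosen with earlier results of these data known. Protein sequences were not used here, and 1 item of the named-gene rule is not reported here.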

Additional observations from a re-analysis of the deposited data

Results flagged for a closer look

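In 24 of the 60 groups of 6 libraries examined, the lowest or highest library was separated from the nearest other by a share of the group's whole range above the 95% critical value of Dixon's test. Chance gives about 1 group in 20, and the groups are not independent, since they come from the same 12 libraries.

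Replicate 2 was the highest library in 22 of these groups. For the members the share of the range was 0.653 for HSP90AB1 in DHT, 0.781 for HSPA8 in DHT, 0.781 and 0.853 for STIP1 in vehicle and DHT, and 0.758 and 0.800 for FKBP4 in vehicle and DHT. For organelle chaperones it was 0.839 and 0.872 for TRAP1 in vehicle and DHT and 0.735 for HSPA5 in vehicle. For heat-inducible genes it was 0.785 and 0.780 for HSPA1A, 0.878 and 0.734 for HSPA1B, 0.803 and 0.852 for DNAJB1, and 0.713 and 0.804 for HSPB1, each in vehicle and then DHT. For the heat shock factor HSF1 it was 0.768 in vehicle and 0.775 in DHT. The co-chaperones PPP5C (0.729) and BAG3 (0.723) stood out in vehicle and ST13 (0.677) in DHT.

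HSPA8 in vehicle was the group in which replicate 5 stood out, at 3973 CPM against 2714 CPM for the next library, a share of 0.676. The ratio of HSP90AA1 to HSP90AB1 in DHT had replicate 2 as its lowest library, at 0.857 against 1.33 for the next, a share of 0.757.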

How the results depend on the processing

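Over all genes, 464 passed, and the count was 793 with DESeq2, 826 with the GC and length offset, 920 without both replicate 2 libraries, 1769 without those and vehicle replicate 5, and between 278 and 619 with 1 library left out. The count moved by over 1.5 times without vehicle replicate 3 (306) or without DHT replicate 1 (278), 3 (282), 4 (301) or 6 (280.0). The 10 members gave 0 raised genes under 26 of 28 alternatives and 0 lowered under all 28, and 0 to 0 raised and lowered with 1 library left out. The log2 ratio of HSP90AA1 to HSP90AB1 (-0.15) was -0.26 without both replicate 2 libraries, -0.14 without those and vehicle replicate 5, and between -0.37 and -0.0079 with 1 library left out. The log2 ratio of HSPH1 to HSPA8 (0.37) was 0.40, 0.18 and between 0.21 and 0.47 in the same order. The cause was not tested. The members held at least 954 counts in every library.

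The correlations between the deviations of same-numbered libraries were 0.515, 0.875, 0.438, 0.259, -0.238 and 0.456 for replicates 1 to 6. Replicate 5 went the other way and not every library matched its own number best, so the numbers were not taken as pairs. With the replicate block, edgeR called 1286 genes and 1 member raised (HSPH1, 0.34, adjusted p = 0.0339, where 4.67% of all genes were raised) and TRAP1 (0.57, adjusted p = 0.00342). The HSPH1 to HSPA8 ratio was 0.37 with an exact sign-flip p of 0.0312 under the block, the smallest that 6 pairs can give. It was higher in DHT in 6 of 6 same-numbered pairs. With the block and the GC and length offset together, 2320 genes and 2 members passed (HSPH1, adjusted p = 0.0146, and AHSA1, adjusted p = 0.0261, where 8.02% of all genes were raised).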
